A study of Mus musculus with 10 samples.

Results

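The genes described here are 39 interferon response and antigen presentation genes of the mouse, taken from the mRNA profiles of cultured cortical neurons that had received Gata1, a zinc finger transcription factor of blood cells, or a control virus. They were chosen by gene symbol, and all 39 have exactly 1 row in each mRNA table, out of 40904 gene symbols in the tables. Of the 39, 26 reached a mean of at least 1 FPKM (fragments relative to the length of the transcript and the size of the library) over the 2 libraries, and 13 did not. The genes were picked with earlier results of these data known, so their shared direction is not independent evidence.

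The AAV-Gata1 culture and the AAV-Control culture were both primary cortical neurons of the outbred ICR strain, taken from embryos at embryonic day 14 and collected at day 11 in vitro. Each had received an adeno-associated virus, with Gata1 in the first and a control in the second. The labels name neither the promoter that drives Gata1 nor the insert of the control virus, and they do not say how many embryos were pooled. Each condition has 1 mRNA library, so no difference below has a replicate check, none was tested, and no p-value is given. The series also lists histone mark and small RNA samples, which are not used here.

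Type I interferons are antiviral signals that bind a receptor of a pair of chains, IFNAR1 and IFNAR2. The receptor activates STAT factors, among them STAT2, which act with IRF9 at the interferon-stimulated response element (ISRE) of their target genes, whereas interferon gamma acts through the gamma-activated sequence (GAS). The induced genes block viral replication, sense viral RNA, and raise the display of peptides on MHC class I molecules. In the brain, microglia and astrocytes respond strongly, and resting neurons are known for low MHC class I.

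As shown in the RefSeq promoter windows (GRCm38.p6, 250 bases before to 50 bases from the annotated start), the response elements are written into many of these genes. A window was found for 33 of the 39; Oas2, Mx1, Mx2, Usp18, Parp14 and Tap2 had none in the table. An ISRE core, searched on both strands as GAAA and GAAA with any 2 bases between them, was present for 16 of the 33 genes (48.5%), against 3.99% of all 27025 genes in the promoter table. With a longer core, GGAAA and GAAA with any 2 bases between them, the numbers were 12 of 33 (36.4%) against 1.33%. A GAS core, TTCNNNGAA, which reads the same on both strands, was present for 11 of 33 (33.3%) against 9.55% of all genes. A GATA site (the letters GATA, preceded by A or T and followed by A or G, on both strands) was present for 10 of 33 (30.3%) against 33.0% of all genes, a share near that of all genes. ISRE and GAS cores overlapped each other in Bst2 and Ifitm3. A match is only a match of letters and shows no binding.

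The cores of 11 genes that reached 1 FPKM are shown to let them be compared, each in the direction of its gene, with the ISRE core in capitals (several overlapping cores run together) and up to 15 bases on either side. In Ifitm3, which holds a pair of separate cores, and in Ifit3, likewise, the core nearest the end of the window is the one printed.
Stat2 (chr10:128270261-128270300, plus strand): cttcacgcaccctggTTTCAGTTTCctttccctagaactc
Ddx58 (chr4:40239799-40239838, minus strand): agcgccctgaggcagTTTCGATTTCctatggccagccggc
Eif2ak2 (chr17:78882530-78882569, minus strand): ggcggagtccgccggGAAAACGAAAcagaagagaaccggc
Isg15 (chr4:156200860-156200911, minus strand): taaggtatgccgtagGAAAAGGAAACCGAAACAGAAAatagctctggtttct
Ifit3 (chr19:34583392-34583431, plus strand): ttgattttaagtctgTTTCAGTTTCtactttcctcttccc
Ifitm2 (chr7:140955983-140956022, minus strand): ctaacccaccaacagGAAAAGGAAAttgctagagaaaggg
Ifitm3 (chr7:141010701-141010740, minus strand): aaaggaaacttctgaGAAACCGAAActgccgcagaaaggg
Gbp2 (chr3:142620589-142620628, plus strand): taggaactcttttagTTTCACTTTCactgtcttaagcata
Gbp3 (chr3:142559984-142560029, plus strand): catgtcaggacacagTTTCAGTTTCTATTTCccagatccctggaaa
Cxcl10 (chr5:92349078-92349117, minus strand): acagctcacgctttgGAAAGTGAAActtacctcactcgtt
B2m (chr2:122147533-122147572, plus strand): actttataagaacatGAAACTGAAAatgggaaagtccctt

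The Isg15 promoter holds 3 overlapping cores in a row, and Gbp3 holds an overlapping pair. The cores of Ddx58, Ifitm3 and Eif2ak2 lie just after the annotated start, while those of Cxcl10 and Stat2 lie furthest before it.

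4 whole windows are shown because the genes beside them gave the larger differences or share a promoter region, with ISRE and GAS cores in capitals. In Bst2 a GAS core runs into an overlapping pair of ISRE cores. Ifi35 has 1 GAS core just after its start and Irf1 has 1 before it. The Tap1 window holds neither core, and it shares 275 of its 300 bases with the window of Psmb9 on the other strand: the annotated starts of these genes have 225 bases between them and point away from each other.
Bst2 (chr8:71537423-71537722, minus strand): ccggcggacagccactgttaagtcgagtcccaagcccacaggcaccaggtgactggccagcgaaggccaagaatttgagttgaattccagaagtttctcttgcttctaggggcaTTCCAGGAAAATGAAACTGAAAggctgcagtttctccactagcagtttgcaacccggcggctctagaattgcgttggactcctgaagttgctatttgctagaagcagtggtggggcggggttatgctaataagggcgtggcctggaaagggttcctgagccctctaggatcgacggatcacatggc
Ifi35 (chr11:101448162-101448461, plus strand): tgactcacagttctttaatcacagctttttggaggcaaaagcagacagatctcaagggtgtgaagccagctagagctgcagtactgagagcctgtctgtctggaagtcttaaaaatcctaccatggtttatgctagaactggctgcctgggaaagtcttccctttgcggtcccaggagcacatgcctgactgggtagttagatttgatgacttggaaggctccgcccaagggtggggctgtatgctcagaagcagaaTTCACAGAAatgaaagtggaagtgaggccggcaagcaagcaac
Irf1 (chr11:53769764-53770063, plus strand): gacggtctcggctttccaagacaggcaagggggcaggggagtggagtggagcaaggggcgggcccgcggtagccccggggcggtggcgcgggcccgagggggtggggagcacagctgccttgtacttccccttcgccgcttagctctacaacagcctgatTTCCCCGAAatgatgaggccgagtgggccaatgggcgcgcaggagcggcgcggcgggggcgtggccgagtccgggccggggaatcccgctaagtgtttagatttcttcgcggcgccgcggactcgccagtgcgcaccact
Tap1 (chr17:34187306-34187605, plus strand): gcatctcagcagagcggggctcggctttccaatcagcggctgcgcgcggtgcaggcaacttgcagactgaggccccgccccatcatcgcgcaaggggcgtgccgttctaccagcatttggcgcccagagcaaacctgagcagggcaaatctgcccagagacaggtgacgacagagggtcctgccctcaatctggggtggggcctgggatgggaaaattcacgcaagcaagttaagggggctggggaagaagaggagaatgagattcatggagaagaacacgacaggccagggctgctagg

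**Figure D1:**
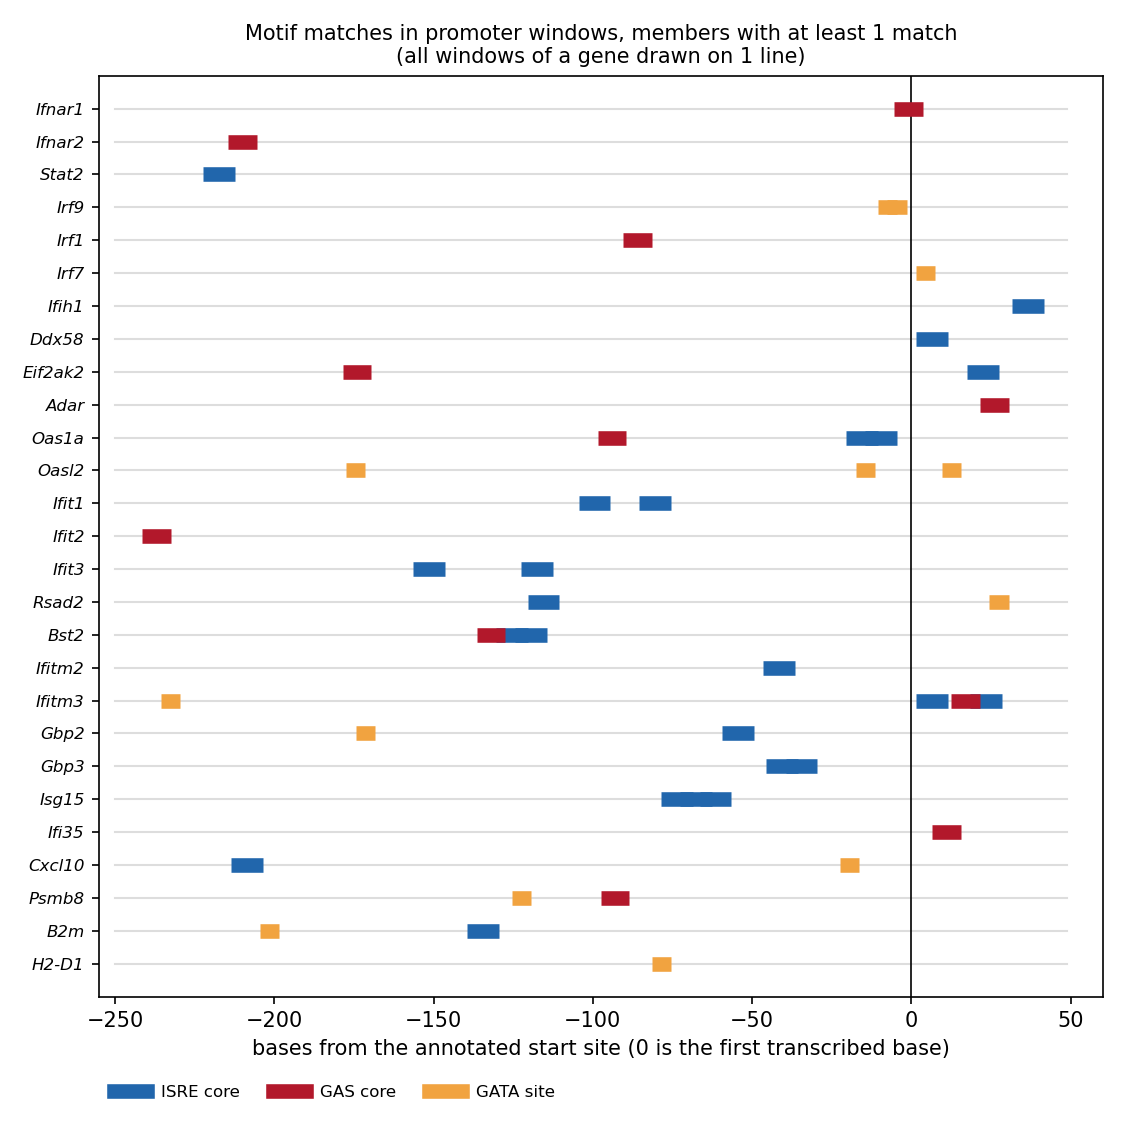
Matches to the ISRE core (blue), the GAS core (red) and the GATA site (orange) in the promoter windows of the 27 genes with at least 1 match, by distance in bases from the annotated start site. ISRE cores sit at different distances from the start, from far before it in Stat2 and Cxcl10 to just after it in Ifih1, Ddx58, Ifitm3 and Eif2ak2.

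The targeted gene goes the way of the labels: Gata1 was listed at 2.07 FPKM in the AAV-Gata1 library and at 0 in the AAV-Control library. The libraries summed to 476848 FPKM with AAV-Gata1 and 476398 FPKM with AAV-Control, and their read depth is unknown. Differences are given as log2 of (AAV-Gata1 FPKM + 1) over (AAV-Control FPKM + 1), which understates those of low genes. Over all 13740 genes that reached the minimum mean of 1 FPKM the median of this log2 ratio was −0.013. The labelled neurons were present by their markers (Map2 at 236 FPKM with AAV-Gata1 and 240 FPKM with AAV-Control), and so were astrocytes (Gfap at 897 FPKM with AAV-Gata1 and 887 FPKM with AAV-Control) and microglia (Tyrobp at 153 FPKM with AAV-Gata1 and 132 FPKM with AAV-Control). Levels are therefore those of a mixed culture, and more cells of a type cannot be told apart from more RNA per cell.

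Most of the interferon and antigen presentation genes that could be compared were slightly higher with AAV-Gata1. Of the 26, 21 were higher and 5 lower, while 45.3% of all genes compared were higher and 54.7% lower. Their median log2 ratio was 0.080, with a range of −0.11 for Xaf1 to 0.39 for Psmb9. Differences were small: 3 of the 26 (Psmb9, Ifi35 and Bst2) were at least 1.2-fold higher, against 3.29% of all genes compared, and none was at least 1.2-fold lower, against 3.98%. None was 2-fold apart, against 0.517% of all genes. By level, 9 of 10 genes with a mean of 1 to 5 FPKM were higher (47.5% of all genes at that level), 8 of 11 with 5 to 20 FPKM (44.4%), and 4 of 5 with 20 FPKM or more (44.8%). Low genes spread more: 2 of the 10 with 1 to 5 FPKM were at least 1.2-fold higher against 7.76% of all genes at that level, 1 of the 11 with 5 to 20 FPKM against 2.67%, and 0 of the 5 with 20 FPKM or more against 0.965%.

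Beside these differences, markers of microglia, which also express many interferon-induced genes, were higher by more. Of 17 markers 15 could be compared, and all 15 were higher with AAV-Gata1, at a median log2 ratio of 0.24. Of all genes compared, 45.3% were higher. The markers summed to 872 FPKM with AAV-Gata1 and 736 FPKM with AAV-Control. Fcrls stood at 25.0 FPKM with AAV-Gata1 and 18.8 FPKM with AAV-Control, Ctss at 29.1 FPKM with AAV-Gata1 and 22.8 FPKM with AAV-Control, and Cx3cr1 at 18.2 FPKM with AAV-Gata1 and 14.6 FPKM with AAV-Control; P2ry12 and Tmem119, which mark mature microglia, stayed under 0.2 FPKM in both libraries. All 9 neuron markers were lower, at a median of −0.086, beside 54.7% of all genes compared that were lower. The compared markers of other cell types also had medians under 0, beside the same 54.7%. Lower were 4 of 5 pericyte and fibroblast markers (median −0.13) and 2 of 3 endothelial markers (−0.11). The same held for 6 of 9 oligodendrocyte lineage markers (−0.046) and 5 of 8 astrocyte markers (−0.027). Under the minimum, all 3 pericyte and fibroblast markers and the 1 oligodendrocyte lineage marker were higher. Of the 5 endothelial markers under the minimum, 4 were higher and 1 lower, with no background count to read them against. The endothelial markers Cldn5, Cdh5 and Tek stayed under 0.1 FPKM in both libraries. The part of these markers in the differences of the interferon genes was not tested.

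**Figure D2:**
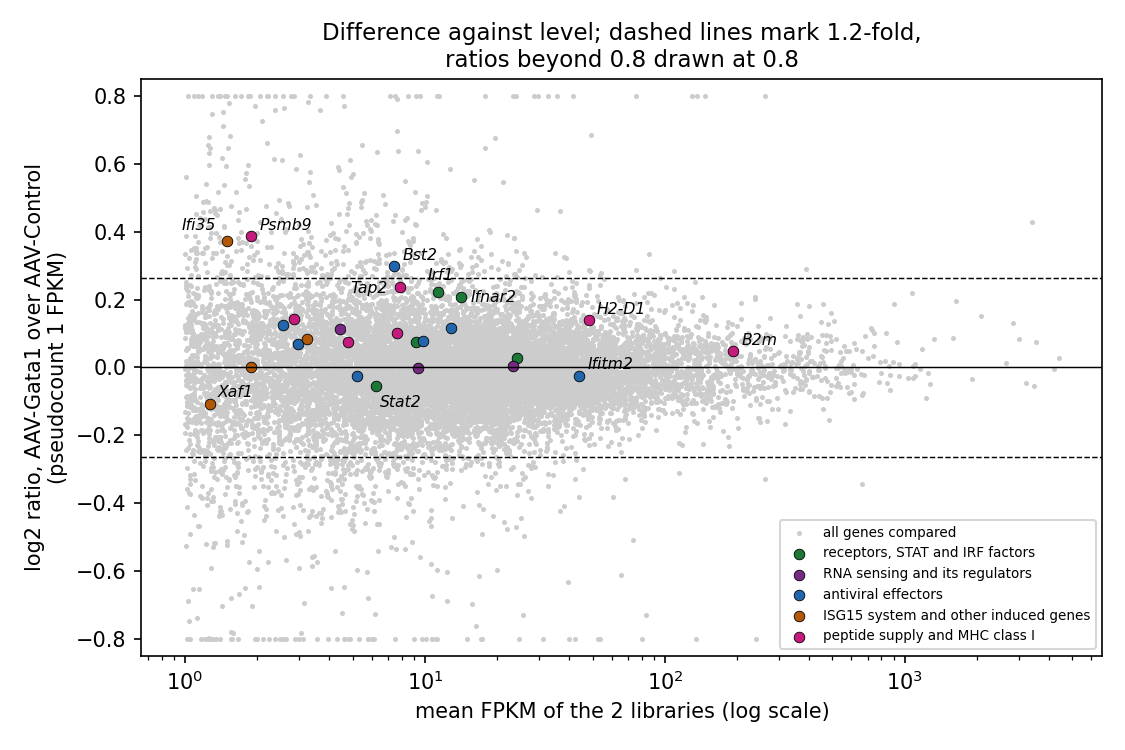
Log2 ratio of AAV-Gata1 over AAV-Control (pseudocount 1 FPKM) against the mean FPKM of each gene (log axis), with the 26 interferon and antigen presentation genes coloured by role over all 13740 genes in grey. Psmb9, Ifi35 and Bst2 lie above the dashed line of 1.2-fold, and 101 of the grey genes lie beyond the drawn range and are placed at its edge.

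No interferon was listed at any level to speak of. Of 21 interferon ligand genes (the alpha family, beta, epsilon, kappa, zeta, gamma and the lambda pair), 19 were listed at 0 in both libraries. The other two, Ifnk and Ifng, were listed at 0 with AAV-Gata1 and under 0.1 FPKM with AAV-Control.

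The receptor chains of the type I pathway were both well above 1 FPKM. Ifnar1 stood at 24.4 FPKM with AAV-Gata1 and 23.9 FPKM with AAV-Control, a log2 ratio of 0.028. Ifnar2 stood at 15.2 FPKM with AAV-Gata1 and 13.0 FPKM with AAV-Control, a log2 ratio of 0.21 that exceeded those of 95.1% of the genes with 5 to 20 FPKM. The chains thus differed in how far apart the libraries were, Ifnar2 by more than Ifnar1. Ifnar1 and Ifnar2 lie near each other on chromosome 16, with 3 annotated genes between them.

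Below the receptor, Stat2, a factor of the type I complex, was a little lower, at 6.11 FPKM with AAV-Gata1 and 6.38 FPKM with AAV-Control (log2 ratio −0.055). Irf9, which gives the complex its DNA binding, stood at 9.49 FPKM with AAV-Gata1 and 8.95 FPKM with AAV-Control (0.075). The members of this 1 complex therefore did not all go the same way. Irf1, a factor induced above all by interferon gamma, stood at 12.3 FPKM with AAV-Gata1 and 10.4 FPKM with AAV-Control; its log2 ratio of 0.22 exceeded those of 95.8% of genes at its level. Irf7, which amplifies the type I response and is itself strongly induced, was low and nearly equal, at 0.420 FPKM with AAV-Gata1 and 0.434 FPKM with AAV-Control.

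Other receptor and signalling genes of the pathway, from a list of 18 of which 16 could be compared, were higher in 10 and lower in 6 cases (median 0.052), beside 45.3% of all genes compared that were higher. The furthest apart was Socs3, a feedback inhibitor of JAK and STAT signalling that many cytokines induce, at 7.00 FPKM with AAV-Gata1 and 4.92 FPKM with AAV-Control. Il10rb, a shared receptor chain of interferon lambda and interleukin 10, followed at 6.95 FPKM with AAV-Gata1 and 5.51 FPKM with AAV-Control. Socs1, the inhibitor most tied to interferon, stood at 2.13 FPKM with AAV-Gata1 and 1.69 FPKM with AAV-Control, and Irf3, the factor that starts interferon production, at 25.5 FPKM with AAV-Gata1 and 22.3 FPKM with AAV-Control. Socs3 and Il10rb were the only 2 of the 16 at least 1.2-fold higher, against 3.29% of all genes compared, and none of the 16 was at least 1.2-fold lower, against 3.98%.

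Genes that sense viral RNA or act on it were mostly low. Ddx58, which encodes the sensor RIG-I, stood at 4.64 FPKM with AAV-Gata1 and 4.21 FPKM with AAV-Control (log2 ratio 0.11). Ifih1, which encodes MDA5, stood at 0.760 FPKM with AAV-Gata1 and 0.638 FPKM with AAV-Control, and Trim25, a ubiquitin ligase that acts with RIG-I, at 0.905 FPKM with AAV-Gata1 and 0.790 FPKM with AAV-Control; both lie under the minimum of 1 FPKM. From a further list of sensors and adaptors, Dhx58 and Tlr3 were named after their values were seen, and both were slightly lower. Dhx58, which encodes LGP2, a relative of RIG-I, stood at 0.354 FPKM with AAV-Gata1 and 0.424 FPKM with AAV-Control, under the minimum. Tlr3, an endosomal sensor of double-stranded RNA, stood at 4.34 FPKM with AAV-Gata1 and 4.43 FPKM with AAV-Control. Of the 13 genes of that list that could be compared, 8 were higher and 5 lower, beside 45.3% of all genes compared that were higher. The sensors thus went both ways.

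Enzymes of double-stranded RNA that cells also express without interferon were even between the libraries. Adar, which edits double-stranded RNA, stood at 23.3 FPKM in both libraries (log2 ratio 0.0044). Eif2ak2, which encodes the kinase PKR that stops translation, stood at 9.36 FPKM with AAV-Gata1 and 9.38 FPKM with AAV-Control (−0.0023).

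The 2′-5′ oligoadenylate synthetase genes, whose products answer double-stranded RNA, were all near or under 1 FPKM. Oas1a stood at 0.657 FPKM with AAV-Gata1 and 0.369 FPKM with AAV-Control, Oasl2 at 1.11 FPKM with AAV-Gata1 and 0.735 FPKM with AAV-Control, and Oas2 at 0.0386 FPKM with AAV-Gata1 and 0.020 FPKM with AAV-Control. The quotients of FPKM were 1.78 for Oas1a, 1.51 for Oasl2 and 1.93 for Oas2, beside 1.55 for Ifi35 and 1.51 for Psmb9, which reached the minimum. Quotients under the minimum ran both ways, with 0.487 for Mx1 and 0.652 for Mx2. Of the 13 genes under the minimum, 5 were higher and 8 lower. Quotients of all genes at such levels were not taken. The other family members, from the list of further interferon-stimulated genes, went the other way: Oas1b stood at 0.155 FPKM with AAV-Gata1 and 0.230 FPKM with AAV-Control, Oas1c at 0.328 FPKM with AAV-Gata1 and 0.427 FPKM with AAV-Control, and Oas1g at 0.0309 FPKM with AAV-Gata1 and 0.0595 FPKM with AAV-Control. Oas3 and Oasl1 were listed at 0 with AAV-Gata1 and under 0.1 FPKM with AAV-Control. The family thus had no shared direction. At such levels the log2 ratio depends on the pseudocount, and the Oas genes lie under the minimum. Oas1a has several close copies in the tables, so its reads may be shared with them.

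Of 18 further sensors and adaptors 13 could be compared, 8 higher and 5 lower (median 0.055), beside the same 45.3%. Tlr7, an endosomal sensor of single-stranded RNA that microglia express, was the furthest apart, at 4.80 FPKM with AAV-Gata1 and 3.32 FPKM with AAV-Control. Zc3hav1, which encodes the antiviral protein ZAP, stood at 1.34 FPKM with AAV-Gata1 and 1.09 FPKM with AAV-Control.

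Several antiviral effectors act at membranes. Ifitm2 and Ifitm3 encode proteins that hinder the entry of viruses through endosomes. Ifitm2 stood at 43.4 FPKM with AAV-Gata1 and 44.2 FPKM with AAV-Control (log2 ratio −0.024), and Ifitm3 at 13.4 FPKM with AAV-Gata1 and 12.3 FPKM with AAV-Control (0.12). These related genes, which lie near each other on chromosome 7, went opposite ways by small amounts. Bst2, which encodes tetherin, a protein that holds budding virus to the cell surface, stood at 8.32 FPKM with AAV-Gata1 and 6.57 FPKM with AAV-Control. Its log2 ratio of 0.30 exceeded those of 98.0% of genes with 5 to 20 FPKM and was the largest of the effectors that were compared.

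The Ifit genes, whose products bind foreign RNA and are among the most strongly induced by type I interferon, kept to unequal levels. Ifit2 stood at 10.1 FPKM with AAV-Gata1 and 9.56 FPKM with AAV-Control (log2 ratio 0.078), Ifit3 at 2.71 FPKM with AAV-Gata1 and 2.40 FPKM with AAV-Control (0.12), and Ifit1 at 0.513 FPKM with AAV-Gata1 and 0.525 FPKM with AAV-Control (−0.012). Ifit1 was thus about as low in both libraries; its window holds a pair of ISRE cores and that of Ifit2 holds none by these letters. Ifit1, Ifit2 and Ifit3 lie close together on chromosome 19 and resemble one another, so reads could be split among them.

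The guanylate-binding proteins Gbp2 and Gbp3 attack the membranes around intracellular pathogens. Gbp2 stood at 5.16 FPKM with AAV-Gata1 and 5.27 FPKM with AAV-Control, and Gbp3 at 3.04 FPKM with AAV-Gata1 and 2.86 FPKM with AAV-Control, so near neighbours on chromosome 3 differed in direction by small amounts. Rsad2, which encodes viperin, an inhibitor of viral replication, was low at 0.643 FPKM with AAV-Gata1 and 0.665 FPKM with AAV-Control.

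The Mx genes were both lower with AAV-Gata1. Mx2 stood at 0.727 FPKM with AAV-Gata1 and 1.11 FPKM with AAV-Control (log2 ratio −0.29), and Mx1 at 0.0602 FPKM with AAV-Gata1 and 0.124 FPKM with AAV-Control. Both encode GTPases that block viral replication in wild mice, and both are annotated as transcribed pseudogenes in the C57BL/6J reference; the labels do not say which alleles these ICR cultures carry. Their levels lie under the minimum.

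Isg15, a ubiquitin-like protein gene that is among the first to answer interferon, stood at 1.89 FPKM in both libraries (log2 ratio 0.0025), and its window holds the 3 ISRE cores shown above. Usp18, which removes ISG15 and shuts off the receptor, was low at 0.431 FPKM with AAV-Gata1 and 0.498 FPKM with AAV-Control. The modifier was even between the libraries, and its protease was not higher with AAV-Gata1.

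The remaining induced genes were split. Ifi35, whose product associates with the interferon-induced protein NMI, stood at 1.82 FPKM with AAV-Gata1 and 1.18 FPKM with AAV-Control (log2 ratio 0.37, above 96.0% of genes with 1 to 5 FPKM). Xaf1, a gene linked to cell death, went the other way at 1.18 FPKM with AAV-Gata1 and 1.35 FPKM with AAV-Control, the largest lower difference of the 26. Cxcl10, a chemokine gene that draws T cells, stood at 3.34 FPKM with AAV-Gata1 and 3.09 FPKM with AAV-Control (0.083). Parp14, an ADP-ribosyltransferase gene, stood at 0.577 FPKM with AAV-Gata1 and 0.642 FPKM with AAV-Control. Ifi44 was listed at 0 with AAV-Gata1 and at 0.119 FPKM with AAV-Control.

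Of the 13 genes under the minimum, 5 were higher with AAV-Gata1 (Ifih1, Trim25, Oas1a, Oas2 and Oasl2). The 8 lower were Irf7, Ifit1, Mx1, Mx2, Rsad2, Usp18, Ifi44 and Parp14. Both groups hold genes that type I interferon is known to induce from a low base. The directions of all genes under the minimum were not counted, so this split has no background to be read against. The highest value of the 13 in either library was the 1.11 FPKM of Mx2 with AAV-Control.

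A list of 46 other interferon-stimulated genes gave 20 that could be compared, of which 16 were higher and 4 lower (median log2 ratio 0.052), beside 45.3% of all genes compared that were higher. The furthest apart were Slfn2, at 2.104 FPKM with AAV-Gata1 and 1.52 FPKM with AAV-Control, Lgals3bp, at 8.36 FPKM with AAV-Gata1 and 6.72 FPKM with AAV-Control, and Igtp, an immunity-related GTPase gene, at 4.19 FPKM with AAV-Gata1 and 3.30 FPKM with AAV-Control. These 3 of the 20 were at least 1.2-fold higher, against 3.29% of all genes compared, and none of the 20 was at least 1.2-fold lower, against 3.98%. Of the 26 genes of the list under the minimum, 10 were higher, 15 lower and 1 at 0 in both libraries. No count over all genes under the minimum was made to set beside these.

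**Figure D3:**
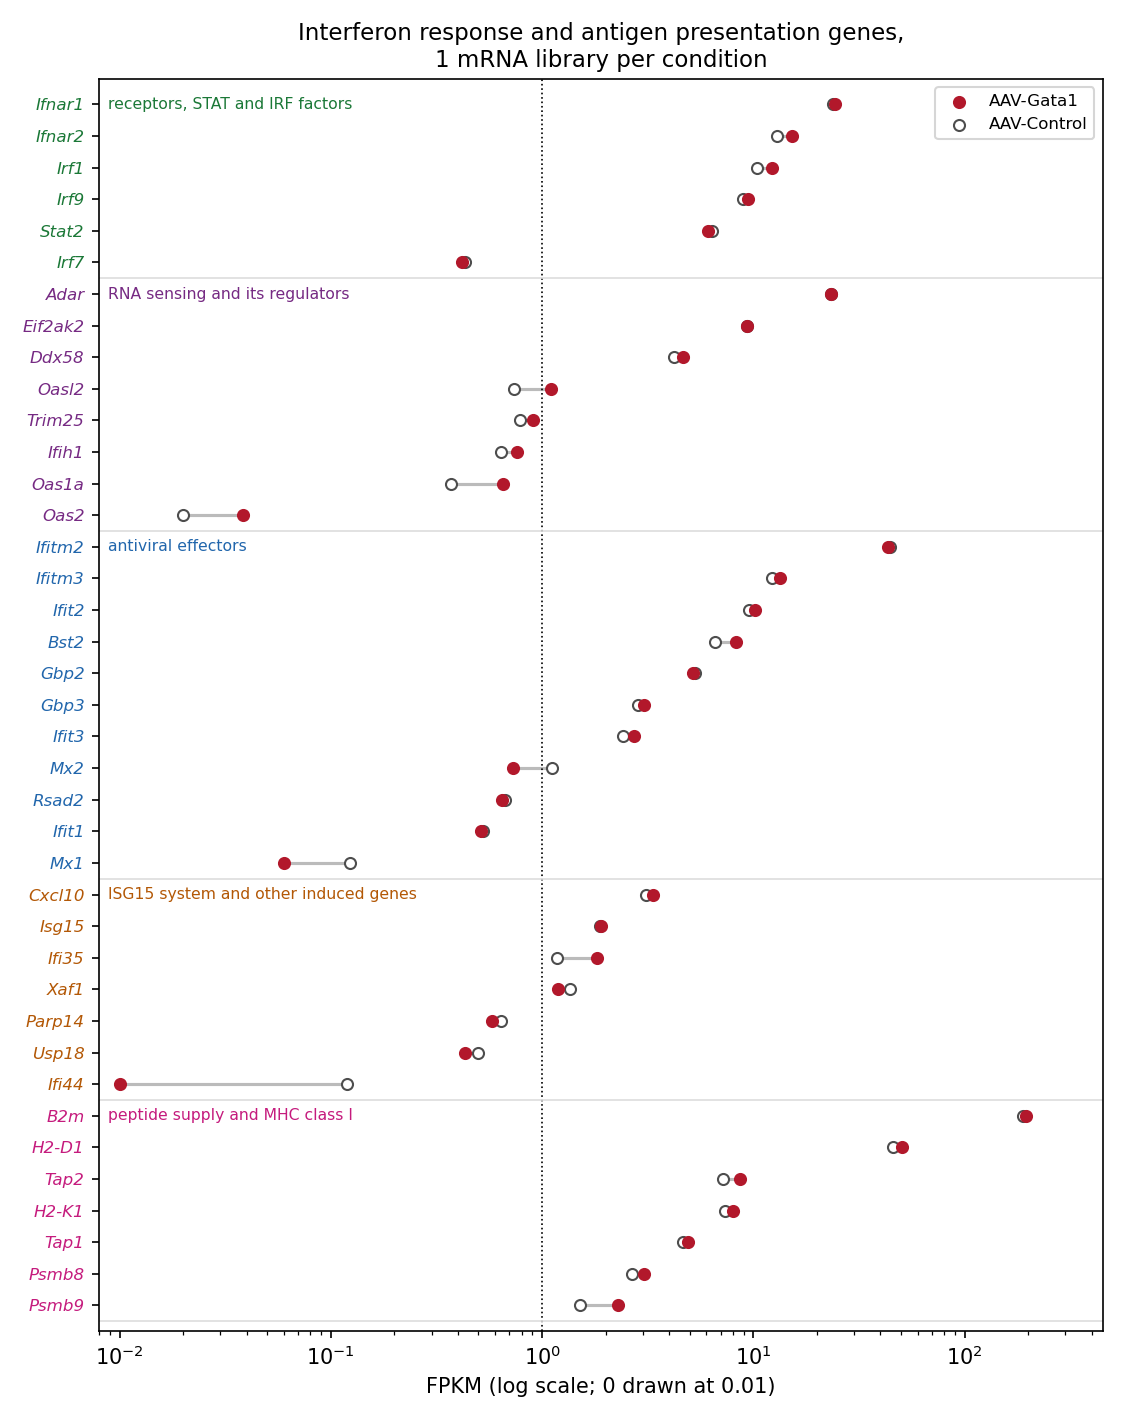
FPKM of the 39 genes (log axis) in the AAV-Gata1 library (filled) and the AAV-Control library (open), grouped by role, with a dotted line at 1 FPKM. Peptide supply and MHC class I genes are all to the right with AAV-Gata1, while the genes under 1 FPKM go both ways.

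The 7 peptide supply and MHC class I genes among the 39 were all higher with AAV-Gata1, while further class I genes were split. MHC class I molecules show the cell's own peptides to T cells; the immunoproteasome cuts the peptides, TAP1 and TAP2 carry them into the endoplasmic reticulum, and the heavy chain with beta-2 microglobulin presents them. The 7 had a median log2 ratio of 0.14, and 45.3% of all genes compared were higher. Of the 7, only Psmb9 was at least 1.2-fold higher on this scale, against 3.29% of all genes compared. Among all genes at its level of 1 to 5 FPKM the share was 7.76%.

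Of the catalytic subunits of the immunoproteasome, Psmb9 and Psmb8 were low. Psmb9 stood at 2.28 FPKM with AAV-Gata1 and 1.51 FPKM with AAV-Control; its log2 ratio of 0.39 was the largest of the 26 and exceeded those of 96.3% of genes with 1 to 5 FPKM. Psmb8 stood at 3.03 FPKM with AAV-Gata1 and 2.66 FPKM with AAV-Control (0.14). The third such subunit, Psmb10, taken from a list of further class I genes, went the other way, at 11.03 FPKM with AAV-Gata1 and 12.4 FPKM with AAV-Control.

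Their constitutive counterparts were far more abundant per length. Psmb9 amounted to 1.204% of the FPKM of Psmb6, the subunit it replaces, with AAV-Gata1 and to 0.801% with AAV-Control. Psmb8 amounted to 2.69% of the FPKM of Psmb5 with AAV-Gata1 and to 2.31% with AAV-Control, and Psmb10 to 8.62% of that of Psmb7 with AAV-Gata1 and to 9.01% with AAV-Control. Of the 7 constitutive beta subunit genes 3 were higher and 4 lower, at a median log2 ratio of −0.024. This is near all genes compared, of which 45.3% were higher, at a median of −0.013.

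The peptide transporter genes differed between themselves. Tap2 stood at 8.64 FPKM with AAV-Gata1 and 7.17 FPKM with AAV-Control; its log2 ratio of 0.24 exceeded those of 96.5% of genes at its level, and its plain quotient of FPKM was 1.204. Tap1 stood at 4.93 FPKM with AAV-Gata1 and 4.63 FPKM with AAV-Control (0.075). Psmb9, Tap1, Psmb8 and Tap2 lie side by side on chromosome 17 with no annotated gene between them. Tap1 and Psmb9, which share the promoter region printed above, differed in the size of their ratios, 0.075 and 0.39.

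The presenting molecules include the most abundant of the 39 genes by FPKM, B2m. B2m, the light chain, stood at 196 FPKM with AAV-Gata1 and 190 FPKM with AAV-Control (log2 ratio 0.047), a mean level above 97.5% of all genes compared. H2-D1, a heavy chain gene, stood at 50.5 FPKM with AAV-Gata1 and 45.7 FPKM with AAV-Control; its ratio of 0.14 exceeded those of 94.7% of genes with 20 FPKM or more. H2-K1, the other classical heavy chain measured, stood at 7.98 FPKM with AAV-Gata1 and 7.37 FPKM with AAV-Control (0.10). Together the heavy chains came to 29.8% of the FPKM of B2m with AAV-Gata1 and to 27.9% with AAV-Control. H2-K1 and H2-D1 resemble each other and vary between mouse strains, and how reads of ICR alleles were assigned was not tested.

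The rest of the class I pathway was split. Of 15 further class I genes that could be compared, 8 were higher and 7 lower, beside 45.3% of all genes compared that were higher, with a median log2 ratio of 0.014 and none 1.2-fold apart. Erap1, the peptidase that trims peptides in the endoplasmic reticulum, stood at 11.7 FPKM with AAV-Gata1 and 9.99 FPKM with AAV-Control. H2-T22, a nonclassical class I gene, stood at 8.72 FPKM with AAV-Gata1 and 10.2 FPKM with AAV-Control, and Psme1, a proteasome activator gene, at 53.3 FPKM with AAV-Gata1 and 47.7 FPKM with AAV-Control. Whether the 7 genes differ from these 15 was not tested.

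Genes of MHC class II, which professional antigen-presenting cells express, were at or near 0. Of 10 genes 9 lay under the minimum, among them Cd74 at 0.11 FPKM with AAV-Gata1 and 0.10 FPKM with AAV-Control. The exception was H2-DMa, which loads class II molecules, at 3.37 FPKM with AAV-Gata1 and 4.72 FPKM with AAV-Control. Markers of T and natural killer cells, from a list of 8, were all under 0.1 FPKM.

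Among the interferon and antigen presentation genes compared, a match to the ISRE core letters in the window did not go with a higher ratio. Looser or more distant elements were not searched for. Of the 12 compared genes with a core, 8 were higher with AAV-Gata1, at a median log2 ratio of 0.057. Of the 13 without one, 12 were higher, at a median of 0.10. These groups also differ in role: of the peptide supply and MHC class I genes, B2m has a core. Psmb8, Psmb9, Tap1, H2-K1 and H2-D1 have none by these letters, and Tap2 has no window. Of the 10 with a GAS core 9 were higher (median 0.13) and of the 15 without one 11 (median 0.075). For the GATA site, 6 of 7 genes with it were higher (median 0.083) and 14 of 18 without it (median 0.076). Among all 9858 compared genes with a window, those with an ISRE core had a median of 0.0015 and those without one −0.013. The shares of these genes that were higher were 50.3% with an ISRE core and 45.1% without one, 42.5% with a GAS core and 45.5% without one, and 45.7% with a GATA site and 45.1% without one. These are descriptions of 2 libraries, and no difference between the motif groups was tested.

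**Figure D4:**
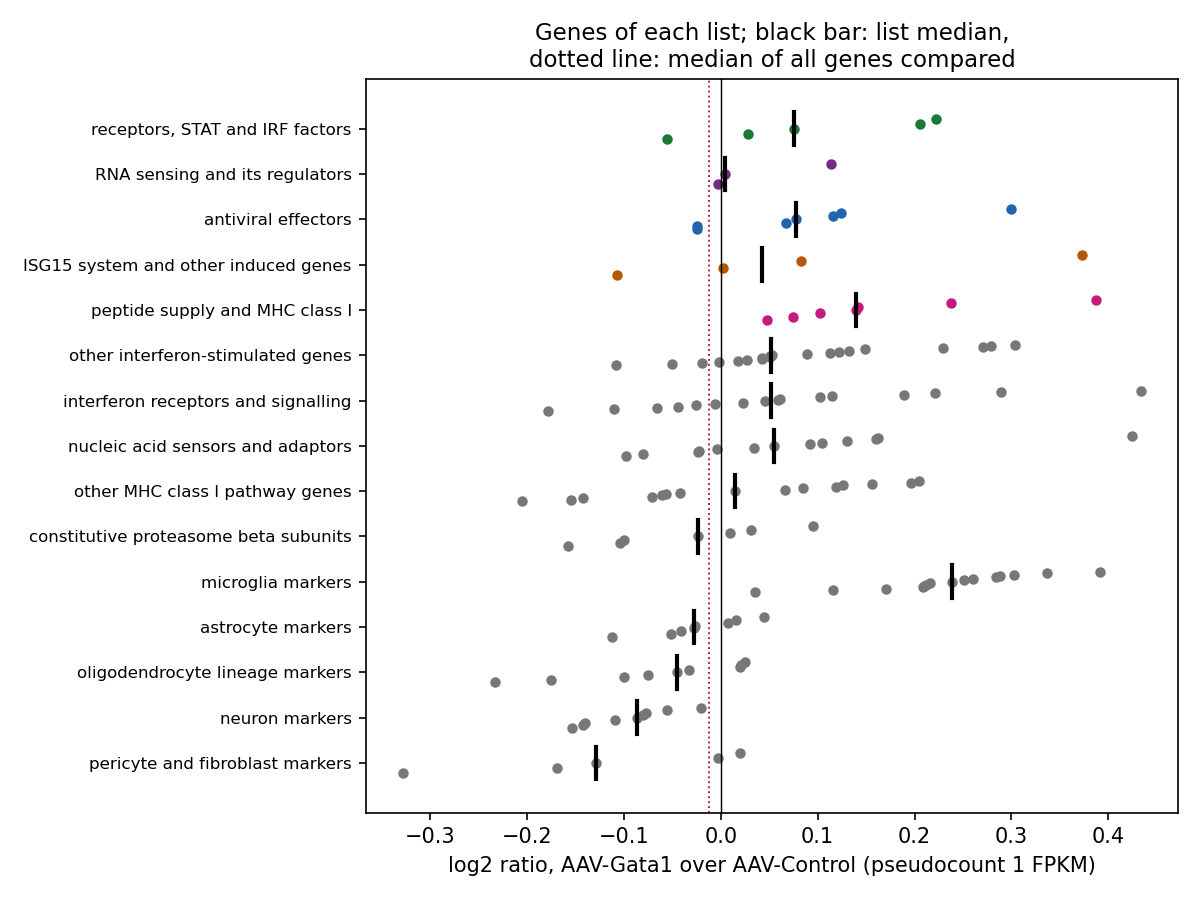
Log2 ratios of AAV-Gata1 over AAV-Control for the compared genes of each list (points), with the list median (black bar) and the median of all genes compared (dotted line). The 5 role groups of interferon and antigen presentation genes are on top, and the microglia markers lie furthest to the right by their median (0.24). The neuron markers lie left of 0, as do the medians of the pericyte and fibroblast, oligodendrocyte lineage and astrocyte markers.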

How the data were processed

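The deposited mRNA values are FPKM, per the file headers, 1 library per condition. Tools that the submitters' processing notes list include Cuffdiff 2.1.1, Cufflinks 2.1.1 and TopHat2 2.1.1, and builds include mm9 and mm10. Which served the mRNA, whether counting used strand, and any further scaling are not given in the sources used here. Of 40993 rows per table, 6 without a symbol were left out (0.0113% of the FPKM with AAV-Gata1, 0.0122% with AAV-Control). A search of 1274 genes under 0.1 FPKM for steps of whole reads found no more than 43 with a common ratio (within 0.02 on the log2 scale), so depth is unknown.

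Log2 ratios used a pseudocount of 1 FPKM and a minimum mean of 1 FPKM per gene; symbols with several rows kept the highest. The ratio and its counts were tested on simulated data. Differences were counted past 1.2-fold and 2-fold, as rules of size. Promoters are those of RefSeq, GRCm38.p6, matched by symbol; gene overlap and order come from the RefSeq annotation of that build. Python 3.11.15, pandas 2.3.3, numpy 2.4.6 and matplotlib 3.10.9 were used. The 39 genes and all lists were chosen with earlier results of these data known. All 39 are named; of other lists, up to 4 with the largest ratios were eligible, and any other gene was named after its values were seen. Alternatives were the pseudocount, the minimum, summed rows, centring, means and other backgrounds. The small RNA files were not used.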

Additional observations from a re-analysis of the deposited data

How the results depend on the processing

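No paired analysis was possible because each condition has 1 library, and for the same reason no library could be left out. The 21 of 26 higher and the median of 0.080 held their direction under all of the pseudocounts (0.055 with 5 FPKM, 0.097 with 0.1 FPKM), with summed rows and with the mean (0.10). Centring, which subtracts −0.013 from each ratio, gave 22 higher. The number at least 1.2-fold higher fell to 0 with a pseudocount of 5 FPKM and to 1 with a minimum mean of 5 FPKM, where 12 of 16 genes were higher. With no minimum, 13 of 39 were lower, 5 stood 1.2-fold or more higher, 1 stood 1.2-fold or more lower, and the median of the antiviral effectors turned to −0.012. The median of the peptide supply and MHC class I genes was 0.070 with a pseudocount of 5 FPKM. Further class I genes turned to −0.057 with a minimum of 5 FPKM, and pericyte and fibroblast markers, at −0.13, to 0.0085 with no minimum. Settings chosen after seeing the data left out genes with a close paralog or an overlapping gene (10 higher and 1 lower of 11, median 0.14) or the 7 antigen presentation genes (14 of 19 higher, median 0.075). No single gene past 1.2-fold changed sign; 28 of 156 single-gene values moved by over 0.05, all under a changed pseudocount.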
